A study of Mus musculus with 9 samples.

Results

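The 9 genes described here encode transcription factors of meiotic and spermatid programs: Mybl1, Tcfl5, Rfx2, Rfx3, Crem, Sox30, Tbpl1, Taf7l and Taf4b. They were chosen by gene name from the 55471 genes of the deposited table, and each name matched a single gene. All 9 passed the filter on low counts and were among the 18234 genes tested.

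Male meiotic prophase is driven by a wave of transcription at the pachytene stage. A-MYB, the protein of Mybl1, switches on pachytene genes and the precursors of pachytene piRNAs, small RNAs of germ cells. TCFL5 is a basic helix-loop-helix factor of the same stage. RFX2 and RFX3 bind the X-box of ciliary genes, SOX30 is needed in mice for the development of round spermatids, and CREM activates genes of sperm head condensation. TBPL1, TAF7L and TAF4B are germ cell relatives of the TATA-binding protein and of subunits of TFIID, the complex that marks where transcription starts.

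RNA was sequenced after poly-A capture from C57Bl mouse germ cells at the pachytene and diplotene stages, which had been sorted from digested testes of animals carrying tdTomato under a promoter active in germ cells. Each of 3 groups had 3 libraries, lettered A to C. Untreated cells, with no culture time given, were one group. Another was cultured for 48 h in 24 mM oxamate, an inhibitor of lactate dehydrogenase that resembles pyruvate, and the last in this oxamate plus 0.3 mM octyl-L2HG, a cell-permeable ester of L-2-hydroxyglutarate. All groups share the strain and the reporter. No group received octyl-L2HG alone or another octyl ester, so an action of the ester part cannot be told apart from that of L2HG. Against untreated cells, treatment and time in culture cannot be told apart. The labels name neither the animals' age nor separate animals or cultures per library, and p-values therefore describe library spread that may be technical.

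Library totals ranged from 24849620 to 46671048 counts. Library C of octyl-L2HG stood apart: on the first principal component of all tested genes, with 67.2% of the variance, it lay at 49.6 against 100.1 and 103 for libraries A and B and -40.2 to -22.9 for oxamate. Changes of the 9 factors and of named list genes that were called with the octyl-L2HG group are therefore also given without it. The 11 pachytene markers summed to 6414 to 6579 CPM (the count scaled to library size) in untreated, 5386 to 5893 in oxamate and 5475 to 5992 in octyl-L2HG libraries, and 2 of the 11 fell with oxamate. Markers of spermatogonia summed to 8.22 to 8.40 CPM in untreated, 6.06 to 7.03 in oxamate and 5.98 to 6.16 in octyl-L2HG libraries. Markers of Leydig cells summed to 3.44 to 3.96, 1.86 to 2.47 and 2.80 to 2.90 CPM in the same order. These 3 sums were thus lower in every treated library than in every untreated one. Sertoli cell markers summed to 0.616 to 1.40 CPM and those of blood and endothelium to 4.88 to 14.5 over all libraries, with Gata4 and Hbb-bs at 0 throughout. Myoid markers summed to 2.70 to 3.56 CPM in untreated, 2.183 to 2.66 in oxamate and 0.946 to 1.42 in octyl-L2HG libraries. The 16 spermatid markers were well above these and also moved with octyl-L2HG. They summed to 1075 to 1242 CPM in untreated, 871 to 1033 in oxamate and 307 to 484 in octyl-L2HG libraries. The myoid and spermatid sums, too, were lower in every treated library than in every untreated one.

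The factors that passed the test numbered 1, 2 and 5 of 9 in the 3 comparisons. With oxamate against untreated, 0 of the 9 rose and 1 fell, Tbpl1 (limma-voom, adjusted p under 0.05). That comparison called 9.58% of all tested genes, 5.74% higher and 3.84% lower. With octyl-L2HG plus oxamate against oxamate, 0 rose and 2 fell, Rfx3 and Taf7l, where 19.5% of all genes were called, 4.11% higher and 15.4% lower. With octyl-L2HG plus oxamate against untreated, 2 rose, Mybl1 and Tcfl5, and 3 fell, Rfx3, Tbpl1 and Taf7l, where 38.3% of all genes were called, 17.2% higher and 21.1% lower. In the first 2 comparisons 2 members each were higher at an unadjusted p under 0.05, and limma-trend also called 0 higher. The groups did not overlap for 2, 3 and 6 of the 9 members, beside 34.0%, 33.1% and 51.3% of all tested genes. The members' median log2 changes were 0.02, -0.03 and -0.07, beside -0.01, 0.07 and 0.01 over all tested genes. The comparisons share libraries, so their calls are not separate evidence. Same-letter libraries deviated together in oxamate against untreated, and a fit that took the letter as a replicate block called 3 members there, Mybl1 and Taf7l higher and Tbpl1 lower, where 22.1% of all genes were called.

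**Figure D1:**
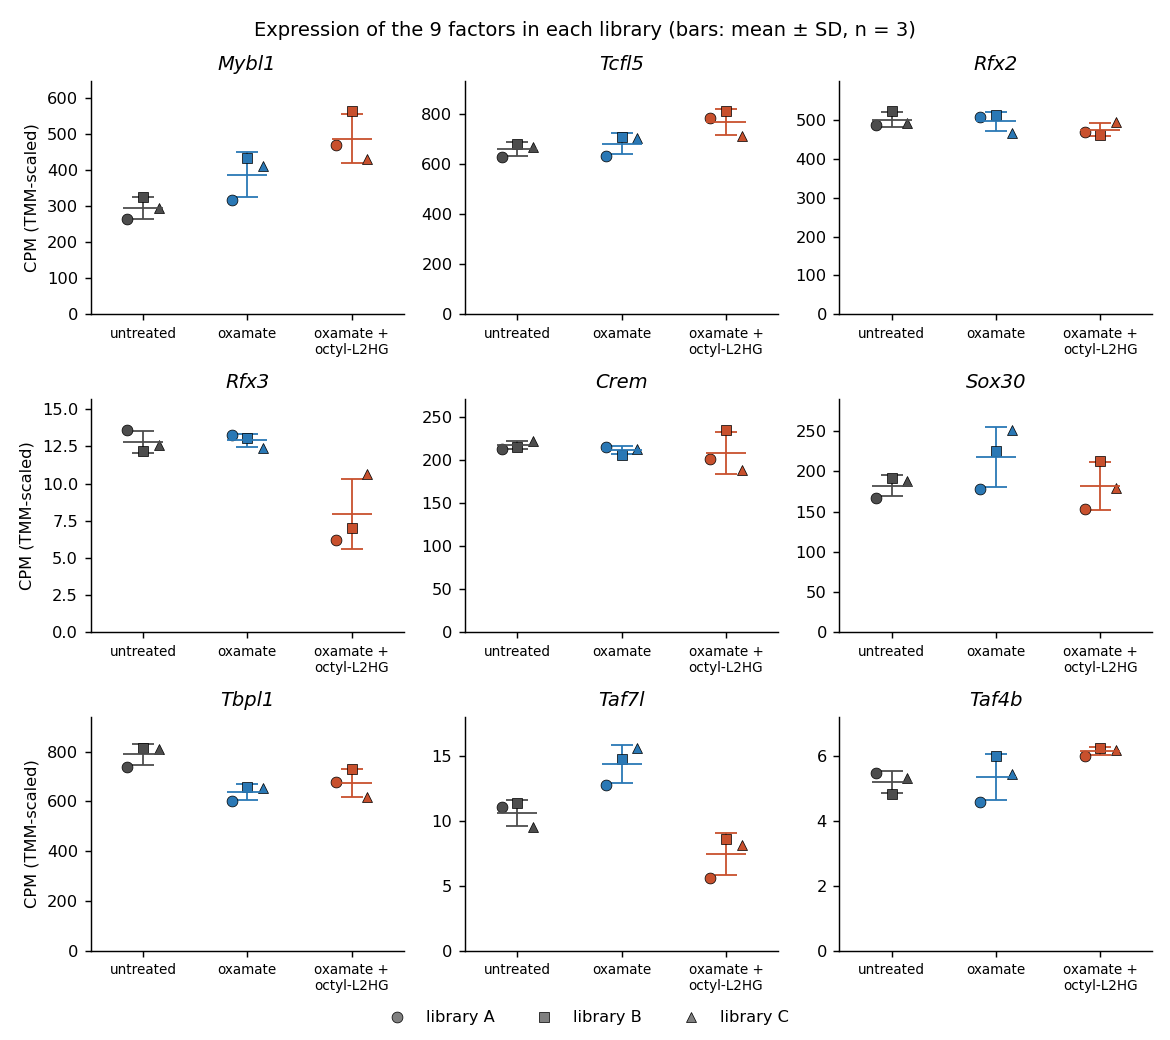
CPM of each factor (vertical axes, each from 0) in the 9 libraries, grouped by treatment, with the group mean and SD (n = 3). Mybl1 is higher in all octyl-L2HG libraries than in the untreated ones (264 to 325 CPM), Rfx3 and Taf7l are lowest in the octyl-L2HG libraries, and the groups of Rfx2 and of Crem overlap.

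**Figure D2:**
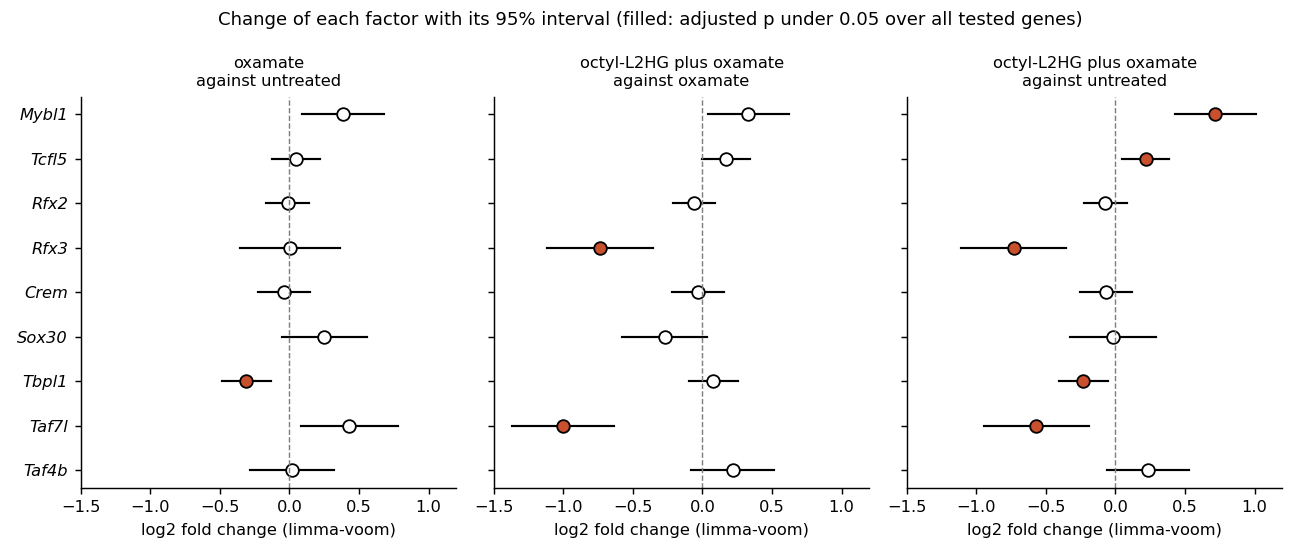
Log2 fold change of each factor with its 95% interval (horizontal axes) in the 3 comparisons, with those marked where the limma-voom adjusted p was under 0.05 over all tested genes. The change farthest from 0 is that of Taf7l with octyl-L2HG plus oxamate against oxamate, at -1.002.

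Mybl1 (ENSMUSG00000025912, chromosome 1, 9667415 to 9700209 on GRCm38) had the largest rise among the 9. Its level was 264, 325 and 296 CPM in untreated libraries A, B and C, 318, 434 and 412 CPM with oxamate, and 469, 563 and 431 CPM with octyl-L2HG. All 3 octyl-L2HG libraries lay above all untreated ones, and the oxamate libraries lay between and overlapped both. The group means were 295 ± 30.4, 388 ± 61.9 and 488 ± 67.9 CPM (SD, n = 3 libraries each). Octyl-L2HG plus oxamate raised it against untreated by 0.72 on the log2 scale (SE 0.13, limma adjusted p = 0.0013), and by 0.80 (adjusted p = 0.0013) without library C. Oxamate alone gave 0.39 (limma adjusted p = 0.092), which passed the threshold in 3 of 17 other settings. These were the letter as a block (0.39, adjusted p = 0.011), the fit without oxamate library A and that without octyl-L2HG library B. The step from oxamate to octyl-L2HG was 0.33 (limma adjusted p = 0.11).

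Of 10 piRNA pathway genes reported under A-MYB, 1 passed the test in any comparison. With oxamate 0 of 10 passed, beside 9.58% of all genes, with the smallest limma adjusted p, 0.18, for the Tudor-domain gene Tdrd12. With octyl-L2HG plus oxamate against oxamate 0 passed again, beside 19.5% (smallest limma adjusted p 0.098, for Tdrd12). At an unadjusted p under 0.05, 1 was lower in the first comparison and 3 were higher in the other, and limma-trend called 0 in each. Taking the letter as a block, oxamate raised 1 and lowered 1. Against untreated, octyl-L2HG plus oxamate raised 1, Tdrd5, a Tudor-domain protein gene, by 0.38 on the log2 scale (limma adjusted p = 0.0042), and by 0.36 (adjusted p = 0.016) without library C, beside 38.3% of all genes called. Their summed level was 5122 to 5458 CPM in untreated, 4949 to 5631 in oxamate and 5228 to 5610 in octyl-L2HG libraries, so all groups overlapped. Median log2 changes were -0.15, 0.17 and -0.01 in the 3 comparisons.

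Tcfl5 (ENSMUSG00000038932, chromosome 2, 180621956 to 180642708) was among the most abundant of the factors. It stood at 628, 682 and 671 CPM in untreated libraries A, B and C, 635, 707 and 706 with oxamate, and 783, 811 and 711 with octyl-L2HG. The octyl-L2HG libraries all lay above the other 6, library C by a narrow margin. The log2 change of octyl-L2HG plus oxamate against untreated was 0.22 (SE 0.08, limma adjusted p = 0.044), and 0.27 (adjusted p = 0.028) without library C. That call was lost in 12 of 17 other settings, and adjusted p ranged from 0.015 to 0.18. Oxamate alone gave 0.05 (95% interval -0.12 to 0.22). The gene overlaps Col9a3 on the opposite strand, which had 193 counts over all libraries against 221213 for Tcfl5.

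The promoter of Tcfl5 is shown because A-MYB is a regulator of pachytene genes and the window holds a pair of matches to MYB letters. The MYB letters searched were AACTG on both strands, found in 44.8% of 32851 mouse promoters of the same length, so a match is common. All promoters printed are from RefSeq (GRCm38.p6), run 5′ to 3′ on the gene's strand from 250 bases before the annotated start to 50 after it, and carry in capitals every match to the 7 motifs searched. Positions count from the start base as 0. In Tcfl5 (chr2:180642642-180642941, minus strand) the capitals mark the MYB letters at -236 and, on the other strand, -140. The window holds 35 CpG dinucleotides, where the median of all promoters is 7.
Tcfl5: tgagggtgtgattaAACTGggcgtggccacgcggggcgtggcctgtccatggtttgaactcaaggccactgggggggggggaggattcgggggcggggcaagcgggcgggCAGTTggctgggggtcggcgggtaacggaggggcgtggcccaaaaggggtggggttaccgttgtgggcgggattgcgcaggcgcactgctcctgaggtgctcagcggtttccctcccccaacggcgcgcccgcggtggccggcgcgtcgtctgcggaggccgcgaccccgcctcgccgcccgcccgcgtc

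Of the winged-helix factors that bind the X-box, Rfx3 fell with octyl-L2HG and Rfx2 passed no threshold. Rfx2 (ENSMUSG00000024206, chromosome 17, 56775897 to 56831013) had 486, 521 and 492 CPM in untreated libraries A, B and C, 507, 513 and 467 with oxamate, and 469, 460.4 and 493 with octyl-L2HG. All 3 groups overlapped. Its log2 changes were -0.01 (95% interval -0.17 to 0.14) with oxamate and -0.06 (95% interval -0.21 to 0.09) with octyl-L2HG plus oxamate against oxamate.

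Rfx3 (ENSMUSG00000040929, chromosome 19, 27761721 to 28011166) was far scarcer, with 159 to 596 counts per library. It had 13.6, 12.2 and 12.6 CPM in untreated libraries A, B and C, 13.2, 13.1 and 12.4 CPM with oxamate, and 6.20, 6.996 and 10.6 CPM with octyl-L2HG. Every octyl-L2HG library was below the other 6, with library C nearest to them. The change against oxamate was -0.74 on the log2 scale (SE 0.17, limma adjusted p = 0.010), or 1.67-fold lower, and against untreated -0.73 (limma adjusted p = 0.0059). Without library C these were -0.98 (adjusted p = 0.00020) and -0.98 (adjusted p = 0.00016), while without library A the change against oxamate was -0.54 (adjusted p = 0.063). With oxamate alone Rfx3 had a log2 change of 0.01 (95% interval -0.35 to 0.36). The spermatid markers fell in the same libraries, 16 of 16 past the threshold against oxamate and none at 0, as did the summed myoid markers, and their part in the fall of Rfx3 was not tested. In bulk RNA, fewer cells that express a gene and less of its RNA per cell cannot be told apart.

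Both promoters are shown because each holds GTTGCC, the core letters of an X-box arm that RFX factors bind. These letters were in 12.5% of all promoters, searched on both strands. They lie at -116 in Rfx2 (chr17:56830959-56831258, minus strand) and at 31 in Rfx3 (chr19:28011117-28011416, minus strand), past the start. Rfx2 also holds TGACG, the core of a cAMP response element (CRE), at -224, which 20.8% of promoters hold. Extending these letters until the Rfx2 and Rfx3 promoters differ gave the run AACCGTTGCC, so that both hold it follows from how it was made. It was looked for after the promoters were read. Of 32851 promoters 8 hold it, those of Rfx2 and Rfx3 themselves and of Ezr and Asrgl1 among them. The share expected for any run of this length was not worked out. The windows hold 38 and 31 CpG dinucleotides.
Rfx2: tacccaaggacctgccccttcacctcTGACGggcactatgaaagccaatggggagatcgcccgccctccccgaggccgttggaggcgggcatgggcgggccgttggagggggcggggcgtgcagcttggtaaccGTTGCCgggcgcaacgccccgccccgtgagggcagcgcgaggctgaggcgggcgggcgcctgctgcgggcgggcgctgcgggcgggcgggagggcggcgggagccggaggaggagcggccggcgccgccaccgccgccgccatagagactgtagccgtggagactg
Rfx3: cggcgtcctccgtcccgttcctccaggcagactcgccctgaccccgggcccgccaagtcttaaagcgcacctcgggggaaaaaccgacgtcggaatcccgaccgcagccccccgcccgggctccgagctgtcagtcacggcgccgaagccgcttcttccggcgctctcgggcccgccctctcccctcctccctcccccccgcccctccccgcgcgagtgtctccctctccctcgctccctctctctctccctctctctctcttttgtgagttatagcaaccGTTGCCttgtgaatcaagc

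Cilium assembly genes, a class that RFX factors regulate, went both ways. Of 25, oxamate raised 1 and lowered 1, or 7 and 3 under the replicate block. Octyl-L2HG plus oxamate raised 1 and lowered 2 against oxamate, and raised 6 and lowered 3 against untreated (4 and 3 without library C). The oxamate counts were 4 and 1 without oxamate library A or octyl-L2HG library B, and 0 and 0 without untreated library C. Against untreated, 2 rose without any one untreated library. Their median log2 changes were 0.01, 0.10 and 0.09, beside the medians over all genes of -0.01, 0.07 and 0.01. Of all tested genes, 9.58%, 19.5% and 38.3% were called in the 3 comparisons, and 22.1% with oxamate under the replicate block. Foxj1, the master factor of motile cilia, went from 37.5 ± 0.583 CPM in untreated to 62.1 ± 1.10 with oxamate and 40.5 ± 9.26 CPM with octyl-L2HG (SD, n = 3 each). Those steps were 0.73 (limma adjusted p = 0.0087) and -0.64 (limma adjusted p = 0.0045) on the log2 scale. Bbs5, a subunit of the BBSome that moves cargo in cilia, had -0.52 with octyl-L2HG plus oxamate against oxamate (limma adjusted p = 0.0018). Ttc8, another BBSome subunit, rose by 0.65 against untreated (limma adjusted p = 0.0017). Without library C the octyl-L2HG changes were -0.83 (adjusted p = 7.1e-05) for Foxj1, -0.57 (adjusted p = 0.0015) for Bbs5 and 0.67 (adjusted p = 0.0036) for Ttc8. Of the spermatid markers 16 of 16 also fell against oxamate, and their part in the falls of Foxj1 and Bbs5 was not tested.

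Crem (ENSMUSG00000063889, chromosome 18, 3266048 to 3337748) passed the threshold in none of the 3 comparisons. It had 213, 215 and 222 CPM in untreated libraries A, B and C, 215, 206 and 213 with oxamate, and 201, 235 and 188 with octyl-L2HG. The groups overlapped throughout, and the octyl-L2HG libraries were the most spread. Log2 changes were -0.04 (95% interval -0.22 to 0.15) with oxamate and -0.03 (95% interval -0.22 to 0.16) with octyl-L2HG plus oxamate against oxamate. Crem makes both repressor and activator isoforms, and the annotation lists 39 transcripts, so a gene count cannot show a switch between them. Part of the gene overlaps Gm6225 on the opposite strand, with 924 counts against 66413.

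**Figure D3:**
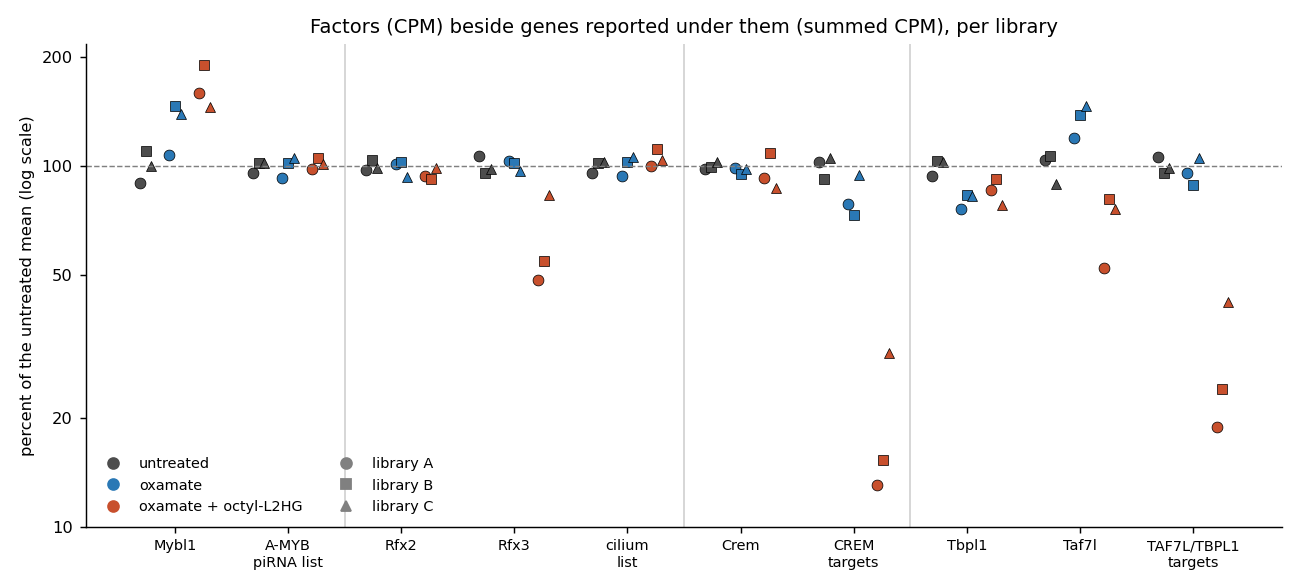
Level in each library as percent of the untreated mean (vertical log axis) for factors (CPM) and for genes reported under them (summed CPM), by group and library letter. CREM targets in octyl-L2HG libraries lie at 13.03% to 30.4%, while Crem itself lies at 86.8% to 108.5%.

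The genes reported under CREM fell with octyl-L2HG. Of 8, 0 passed the threshold with oxamate (2 were lower at an unadjusted p under 0.05, and limma-trend called 0), and 2 fell there in the fit without octyl-L2HG library C. All 8 fell with octyl-L2HG plus oxamate against oxamate (median log2 change -2.58, beside 0.07 over all genes) and against untreated (median -2.95). Of all tested genes, 15.4% and 21.1% were called lower there, and 9.58% were called with oxamate. Without library C all 8 fell as well, with medians of -3.23 and -3.60. Their summed level was 786, 707 and 809 CPM in untreated libraries A, B and C, 601, 563 and 723 with oxamate, and 100.03, 118 and 233 with octyl-L2HG. Each octyl-L2HG library was far below the other 6, with library C the highest of them. Tnp1, a transition protein that replaces histones in spermatids, went from 77.6 ± 7.51 CPM in untreated to 55.8 ± 10.7 with oxamate and 7.52 ± 5.15 with octyl-L2HG. Its change against oxamate was -3.09 on the log2 scale (SE 0.33, limma adjusted p = 9.4e-05). Ace, the angiotensin-converting enzyme, which has a germ cell form, had -1.47 (limma adjusted p = 2.9e-05), and Camk4, a calmodulin-dependent kinase, -2.61 (limma adjusted p = 0.00012). Without library C these 3 changes were -3.66 (adjusted p = 1.0e-06), -1.60 (adjusted p = 1.2e-06) and -3.15 (adjusted p = 1.3e-06). With oxamate alone Tnp2 and Prm1, a transition protein and a protamine, had -0.73 (limma adjusted p = 0.11) and -0.68 (limma adjusted p = 0.17). Tnp1, Tnp2, Prm1, Prm2 and Odf1 also stand among the 16 spermatid markers, so the falls of these lists are not separate. The part of the spermatid markers in these falls was not tested.

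Other spermatid regulators fell with octyl-L2HG as well. Of 10, oxamate raised 1 and lowered 0, 0 rose and 8 fell with octyl-L2HG plus oxamate against oxamate, and 2 rose and 7 fell against untreated, with median log2 changes of 0.18, -1.70 and -1.57. Without library C the last 2 comparisons gave the same counts. Over all tested genes, 9.58%, 19.5% and 38.3% were called in the 3 comparisons. Fhl5, the LIM protein ACT that serves CREM as a coactivator in spermatids, went from 37.2 ± 5.32 CPM in untreated to 25.8 ± 7.33 with oxamate and 4.02 ± 2.32 with octyl-L2HG. The last step was -2.78 on the log2 scale (SE 0.32, limma adjusted p = 0.00012). Kif17, a kinesin that binds ACT in mouse spermatids, had -1.80 (limma adjusted p = 0.00024), and was named after its values were seen. Sox5, a SOX factor, and Chd5, a chromatin remodeler of spermiogenesis, had -1.98 (limma adjusted p = 9.7e-05) and -2.09 (limma adjusted p = 0.00013). Without library C these 4 changes were -3.25 (adjusted p = 1.1e-05), -2.20 (adjusted p = 5.6e-07), -2.34 (adjusted p = 5.1e-07) and -2.50 (adjusted p = 3.7e-07). The spermatid markers fell in the same libraries, 16 of 16 against oxamate, and their part was not tested. Nr6a1, the germ cell nuclear factor, rose with oxamate by 0.38 (limma adjusted p = 0.022). It was at -0.06 with octyl-L2HG plus oxamate against oxamate (limma adjusted p = 0.72). With 1 library left out, oxamate raised 0 to 2 of the 10 regulators, so the call of Nr6a1 was lost in at least 1 such fit.

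Sox30 (ENSMUSG00000040489, chromosome 11, 45980310 to 46017994) passed the threshold in none of the 3 comparisons as fitted. Its level was 167, 191 and 188 CPM in untreated libraries A, B and C, 178, 225 and 252 with oxamate, and 153, 212 and 179 with octyl-L2HG. Oxamate libraries B and C were the highest, library A was the lowest of each group, and all groups overlapped. Oxamate gave a log2 change of 0.25 (95% interval -0.05 to 0.56, limma adjusted p = 0.28), and octyl-L2HG plus oxamate against oxamate -0.27 (95% interval -0.58 to 0.03, limma adjusted p = 0.22). The last change passed the threshold in 3 other settings. It was -0.27 (adjusted p = 0.036) with the letter as a block, -0.41 (adjusted p = 0.048) without oxamate library A, and -0.43 (adjusted p = 0.036) without octyl-L2HG library B.

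Tbpl1 (ENSMUSG00000071359, chromosome 10, 22703879 to 22731938), which encodes a relative of the TATA-binding protein needed for spermiogenesis in mice, was the member that fell with oxamate. It had 740.2, 816 and 812 CPM in untreated libraries A, B and C, 601, 658 and 652 with oxamate, and 678, 728 and 616 with octyl-L2HG. Every treated library was below every untreated one, and the treated groups overlapped. With oxamate it changed by -0.31 on the log2 scale (SE 0.08, limma adjusted p = 0.037), or 1.24-fold lower, and by -0.31 with the letter as a block (adjusted p = 0.0087). This call was lost without any one of the 6 untreated and oxamate libraries, with log2 changes of -0.36 to -0.27 over all settings. With octyl-L2HG plus oxamate against untreated the change was -0.23 (limma adjusted p = 0.041), and -0.17 (adjusted p = 0.16) without library C. Octyl-L2HG plus oxamate against oxamate gave 0.08 (95% interval -0.10 to 0.26). The summed markers of pachytene cells, spermatogonia, Leydig cells, spermatids and myoid cells were also lower in every treated library than in every untreated one. Their part in the fall of Tbpl1 was not tested. The gene shares part of its span with Slc2a12 on the opposite strand, which had 40 counts against 219279.

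Taf7l (ENSMUSG00000009596, X chromosome, 134460118 to 134476490), which encodes an X-linked relative of TAF7, had the largest change among the 9. It had 11.04, 11.3 and 9.48 CPM in untreated libraries A, B and C, 12.7, 14.7 and 15.6 with oxamate, and 5.55, 8.58 and 8.09 with octyl-L2HG, from 195 to 570 counts per library. The 3 groups did not overlap, with oxamate highest and octyl-L2HG lowest. Octyl-L2HG plus oxamate against oxamate gave -1.002 on the log2 scale (SE 0.17, limma adjusted p = 0.0011), or 2.003-fold lower, and it passed the threshold in all 17 other settings, from -1.15 to -0.78. Without library C it was -1.10 (adjusted p = 0.0013). Against untreated it was -0.57 (limma adjusted p = 0.021), -0.67 (adjusted p = 0.018) without library C, but -0.35 (adjusted p = 0.10) without octyl-L2HG library A. Oxamate alone gave 0.43 (limma adjusted p = 0.11), which passed in 2 of 17 other settings. These were the letter as a block (0.43, adjusted p = 0.045) and the fit on only the 6 libraries compared. The spermatid and myoid markers were lowest in the same octyl-L2HG libraries, and their part in the fall of Taf7l was not tested.

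Taf7l2 (ENSMUSG00000074734, chromosome 10, 116111664 to 116113917), an autosomal gene of similar name that was added after its values were seen, was far more abundant. On the scale of CPM per kilobase of exon its level was 176 ± 13.000, 211 ± 30.9 and 242 ± 51.4 in untreated, oxamate and octyl-L2HG libraries, where that of Taf7l was 4.73 ± 0.445, 6.39 ± 0.661 and 3.30 ± 0.725. The log2 change of Taf7l2 was 0.19 with octyl-L2HG plus oxamate against oxamate (limma adjusted p = 0.42), and 0.44 against untreated (limma adjusted p = 0.033). Of the 2245 windows of 50 bases in the Taf7l transcripts, 0 also occur in an annotated transcript of another gene, Taf7l2 included. Of the 2205 windows of Taf7l2, 602 also lie in transcripts of Ptprr, a phosphatase gene.

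The Taf7l promoter (chrX:134476441-134476740, minus strand) is shown as that of the member with the largest change. Among the 6 promoters found it alone holds the TATA letters TATAAA, at -148 and, overlapping on the other strand, -150, which 13.6% of all promoters hold. An E-box (CACGTG, in 7.15% of promoters) lies at -49, and on the other strand lie MYB letters at -160 and the SOX letters ACAAT (in 31.0%) at -219. Its 17 CpG dinucleotides were the fewest of the 6. The full CRE letters TGACGTCA, which 1.79% of promoters hold, were in 0 of the 6 windows. A match describes letters and does not show that a factor binds.
Taf7l: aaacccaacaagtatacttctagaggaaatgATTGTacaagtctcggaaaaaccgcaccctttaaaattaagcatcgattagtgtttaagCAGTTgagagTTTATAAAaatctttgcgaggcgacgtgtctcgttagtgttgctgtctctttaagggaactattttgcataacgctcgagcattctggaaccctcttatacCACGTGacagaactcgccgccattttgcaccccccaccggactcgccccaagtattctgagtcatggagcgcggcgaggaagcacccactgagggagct

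Taf4b (ENSMUSG00000054321, chromosome 18, 14783245 to 14900359), a gonadal relative of TAF4, was the lowest of the 9 in CPM, with 130 to 285 counts per library. It had 5.47, 4.81 and 5.31 CPM in untreated libraries A, B and C, 4.58, 5.99 and 5.43 with oxamate, and 5.99, 6.25 and 6.19 with octyl-L2HG. The octyl-L2HG libraries lay together at the top, above the untreated ones, and met the range of oxamate. Log2 changes were 0.02 with oxamate (95% interval -0.29 to 0.32) and 0.23 for octyl-L2HG plus oxamate against untreated (limma adjusted p = 0.20).

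Levels per length spread widely in untreated cells. In CPM per kilobase of exon, Tbpl1 stood at 241 ± 13.1 and Tcfl5 at 208 ± 8.996, above 99.1% and 98.9% of tested genes. Rfx2 at 68.4 ± 2.53, Sox30 at 60.7 ± 4.36, Mybl1 at 54.7 ± 5.62 and Crem at 36.8 ± 0.787 followed, then Taf7l at 4.73 ± 0.445. Rfx3 at 1.16 ± 0.0661 and Taf4b at 1.01 ± 0.0660 were lowest, above 42.9% and 40.5% of tested genes. Sox30 and Mybl1 were the only neighbors in that order whose untreated libraries overlapped. With oxamate Tcfl5 stood first at 216 ± 13.1 CPM per kilobase, overlapping Tbpl1 at 195 ± 9.52, and Sox30, Mybl1 and Rfx2 overlapped in turn. With octyl-L2HG Mybl1 came next after Tcfl5 and Tbpl1, at 90.3 ± 12.6, and Rfx3 was last at 0.720 ± 0.214.

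Of the 10 paralogs and family members tested, oxamate raised 5 and lowered 0, 2 rose and 1 fell with octyl-L2HG plus oxamate against oxamate, and 6 rose and 1 fell against untreated, with median log2 changes of 0.42, 0.18 and 0.54. Without octyl-L2HG library C these counts were 6 and 0, 1 and 2, and 5 and 1. With oxamate only 1 rose without any one of untreated libraries A, B and C or oxamate library C, and 2 without oxamate library B. For octyl-L2HG plus oxamate against oxamate, 0 rose without untreated B, untreated C, oxamate A or octyl-L2HG A, 1 without oxamate B or octyl-L2HG B, and 3 without oxamate C. Myb and Tbpl2 were too low to test. The 3 comparisons called 9.58%, 19.5% and 38.3% of all tested genes. Creb1, the widely expressed relative of CREM, went from 21.5 ± 1.71 to 32.2 ± 4.48 and 42.2 ± 3.28 CPM, steps of 0.58 (limma adjusted p = 0.018) and 0.39 (limma adjusted p = 0.034) on the log2 scale. Atf1, of the same family, rose by 0.37 with oxamate (limma adjusted p = 0.017). Rfx7 rose by 0.83 (limma adjusted p = 0.0018), Rfx5 by 0.47 (limma adjusted p = 0.023), and Mybl2 by 0.59 (limma adjusted p = 0.045). Rfx1 fell, from 31.1 ± 3.78 CPM with oxamate to 13.1 ± 6.54 with octyl-L2HG, or -1.32 on the log2 scale (limma adjusted p = 0.0019). At the same steps Rfx4 had -0.17 (limma adjusted p = 0.20) and 0.07 (limma adjusted p = 0.64). Tbp had 0.14 (limma adjusted p = 0.66) and 0.19 (limma adjusted p = 0.49). Taf7 and Taf4 rose with octyl-L2HG plus oxamate against untreated, by 0.65 (limma adjusted p = 0.0030) and 0.54 (limma adjusted p = 0.025). Without library C the octyl-L2HG changes were 0.42 (adjusted p = 0.049) for Creb1, -1.71 (adjusted p = 8.0e-06) for Rfx1, 0.72 (adjusted p = 0.0034) for Taf7 and 0.43 (adjusted p = 0.081) for Taf4, whose call was lost. The spermatid markers fell in the same libraries as Rfx1, 16 of 16 against oxamate, and their part in its fall was not tested.

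**Figure D4:**
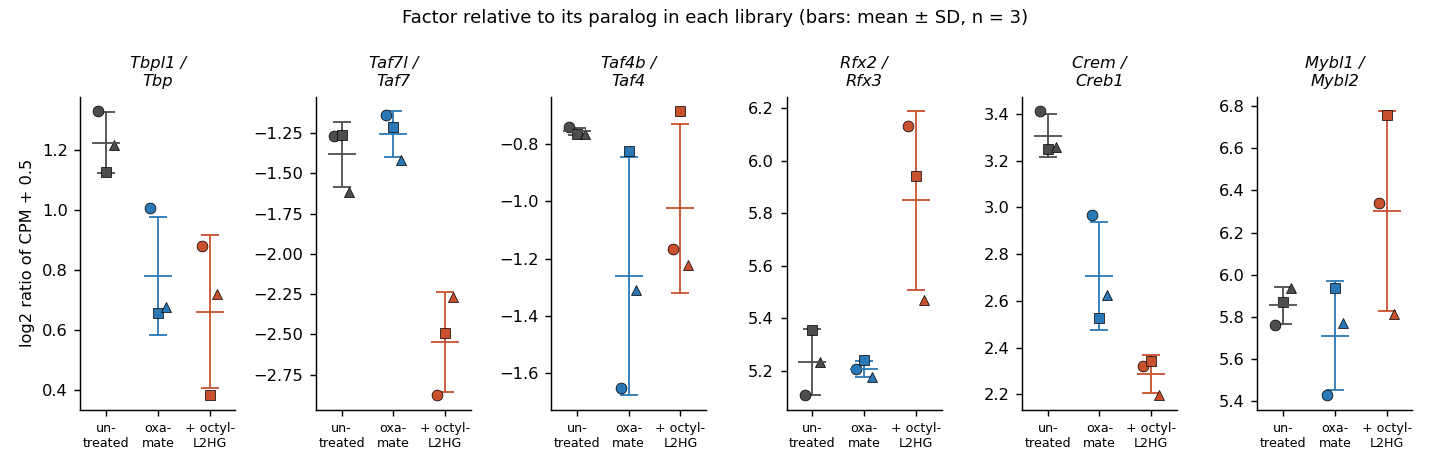
Log2 ratio of each factor to its paralog within a library (vertical axes, which do not start at 0), by group with mean and SD (n = 3). The mean ratio of Crem to Creb1 goes from 3.31 to 2.71 and 2.29 on the log2 scale, where Creb1 rose and Crem passed no threshold. That of Taf7l to Taf7 is lowest in the octyl-L2HG libraries, at -2.55.

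Ratios within a library were taken as log2 of the CPM plus 0.5 of each gene. The log2 ratio of Crem to Creb1 was 3.31 ± 0.0917 in untreated, 2.71 ± 0.230 with oxamate and 2.29 ± 0.0799 with octyl-L2HG (SD, n = 3 each), and no groups overlapped. Over these groups the mean of Crem was 217, 211 and 208 CPM, while that of Creb1 was 21.5, 32.2 and 42.2 CPM. Taf7l to Taf7 went from -1.25 ± 0.143 with oxamate to -2.55 ± 0.308 with octyl-L2HG, again without overlap. Tbpl1 to Tbp went from 1.224 ± 0.102 in untreated to 0.78 ± 0.197 with oxamate, and Rfx2 to Rfx3 from 5.21 ± 0.0318 with oxamate to 5.85 ± 0.340 with octyl-L2HG. With 3 against 3 libraries a two-sided exact permutation test cannot go below p = 0.10, which each of these differences reached, and 0.18 after adjustment over 18 tests. Taf4b to Taf4 reached the same exact permutation p with oxamate, at -1.26 ± 0.416 from -0.76 ± 0.0129, and Mybl1 to Mybl2 did not (exact permutation p = 0.20 to 0.70). With oxamate Taf4 itself had a log2 change of 0.56 (limma adjusted p = 0.056), and Taf4b had 0.02.

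Of 19 subunits of the general factors TFIID, TFIIA and TFIIB, oxamate raised 3 and lowered 0, 1 rose and 1 fell with octyl-L2HG plus oxamate against oxamate, and 9 rose and 0 fell with octyl-L2HG plus oxamate against untreated. Median log2 changes were 0.26, 0.12 and 0.36. Tbp, Taf7 and Taf4 are also counted among the paralogs. With the letter as a block 9 rose with oxamate, and without octyl-L2HG library C the counts were 5 and 0, 0 and 1, and 9 and 1. With oxamate 0 rose without untreated library B or C, 1 without untreated A or oxamate C, 2 without oxamate B, 7 without oxamate A and 8 without octyl-L2HG B. For octyl-L2HG plus oxamate against oxamate, 0 rose without any one library except oxamate C, where 2 did, and against untreated 6 to 9 rose. Taf2, a TFIID subunit, rose at both steps, by 0.47 (limma adjusted p = 0.010) and 0.28 (limma adjusted p = 0.038). Taf9b, an X-linked relative of Taf9, had -0.81 with octyl-L2HG plus oxamate against oxamate (limma adjusted p = 0.0053). Without library C the second step of Taf2 was 0.26 (adjusted p = 0.096), no longer past the threshold, and Taf9b had -1.01 (adjusted p = 0.00054). Spermatid markers fell in the same libraries as Taf9b, and their part in its fall was not tested. Taf1, the largest subunit, had a log2 change of 1.25 with oxamate (limma adjusted p = 0.032), from 0.188 ± 0.0345 to 0.479 ± 0.0823 CPM, on only 4 to 20 counts per library.

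Both genes listed under TAF7L and TBPL1 in spermatids fell with octyl-L2HG, where 15.4% of all tested genes were called lower against oxamate. Fscn3, a testis fascin, went from 10.1 ± 1.42 CPM in untreated to 5.84 ± 1.51 with oxamate and 0.573 ± 0.365 with octyl-L2HG. These steps were -0.82 (limma adjusted p = 0.041) and -3.41 (limma adjusted p = 9.7e-05) on the log2 scale. The call with oxamate was lost without any one untreated library, oxamate B or oxamate C. Klhl10, a ubiquitin ligase adaptor of spermatids, had -1.80 with octyl-L2HG plus oxamate against oxamate (limma adjusted p = 0.00013). Without library C these octyl-L2HG changes were -3.89 (adjusted p = 3.7e-05) and -2.15 (adjusted p = 8.4e-07). The spermatid markers fell in the same libraries, 16 of 16 against oxamate, and their part was not tested.

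Other regulators of pachytene cells and of spermatogonia are given beside 9.58%, 19.5% and 38.3% of all genes called in the 3 comparisons. Of 11 pachytene regulators, oxamate raised 1 and lowered 1, 0 rose and 1 fell with octyl-L2HG plus oxamate against oxamate, and 0 rose and 3 fell against untreated, with median log2 changes of -0.05, -0.04 and -0.20. Without octyl-L2HG library C these counts were 1 and 1, 0 and 1, and 1 and 3. With oxamate 0 of them rose without any one of the untreated libraries or oxamate library B or C, and 0 fell without untreated B or C. For octyl-L2HG plus oxamate, 2 fell against oxamate without octyl-L2HG B, and 1 fell against untreated without octyl-L2HG A. Kctd19, a partner of the meiotic factor ZFP541, had -0.41 with oxamate (limma adjusted p = 0.011). Hsf2, a heat shock factor, rose by 0.38 with oxamate (limma adjusted p = 0.037) and had -0.74 with octyl-L2HG plus oxamate against oxamate (limma adjusted p = 0.00032, -0.83 (adjusted p = 0.00017) without library C). Spermatid markers fell in the same libraries, and their part in the fall of Hsf2 was not tested. Of 9 spermatogonial regulators tested, 1 rose with oxamate and 3 against untreated with octyl-L2HG plus oxamate (1 and 2 without octyl-L2HG library C). The rise with oxamate was lost without any one untreated library, oxamate B or oxamate C, and against untreated 1 rose without untreated C. Against oxamate 0 passed (smallest limma adjusted p 0.20, for Etv5), 0 had an unadjusted p under 0.05, and limma-trend called 0. Bcl6b, which encodes a transcriptional repressor, rose with oxamate by 0.55 (limma adjusted p = 0.025). Rarg, a retinoic acid receptor, rose with octyl-L2HG plus oxamate against untreated by 0.79 (limma adjusted p = 0.0089, 0.80 (adjusted p = 0.019) without library C). It was scarce, at 1.70 ± 0.362 CPM in untreated and 2.89 ± 0.375 with octyl-L2HG, on 43 to 155 counts per library.

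Genes with a pattern like that of a factor were ranked by Pearson's r of log2 CPM over the 9 libraries, among 9609 genes, as a description. The 9 libraries share 3 groups, so high values are common. Closest to Mybl1 was Ranbp2, a nuclear pore protein (r = 0.995), to Tcfl5 Ndufs1, a subunit of respiratory complex I (r = 0.986), and to Rfx3 Spaca6, a sperm membrane protein (r = 0.993). Closest to Tbpl1 was Immt, a protein of mitochondrial cristae (r = 0.990), to Taf7l Ribc1 (r = 0.981) and to Sox30 Fhad1 (r = 0.986). Rfx2, Crem and Taf4b had lower values, with Lrrc36 (r = 0.960), the ribosomal protein gene Rps12 (r = 0.910) and the DNA damage sensor Ddb2 (r = 0.909). These passed no threshold as fitted, and neither did Sox30.

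The authors' deposited table gave the same direction for every called member. In the authors' deposited table Mybl1 had an adjusted p of 0.0129 with oxamate and of 0.0252 with octyl-L2HG plus oxamate against oxamate, past 0.05 where the limma values were not. For Tcfl5 and Tbpl1 with octyl-L2HG plus oxamate against untreated, the authors' deposited table gave 0.0778 and 0.0684. Taf7l against oxamate had an adjusted p of 3.27e-07 and a log2 fold change of -0.97 in the authors' deposited table.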

How the data were processed

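The authors deposited 1 table of 55471 genes whose raw columns hold whole-number counts without normalization, per the file headers. In 6255 genes these columns hold a question mark, and those genes were left out; for that reason the columns were recorded under another unit. Per the submitters' processing notes, the tools were TopHat2 2.1.1, HTSeq 0.6.0, bcl2fastq 2.18.0.12, cutadapt 1.18 and DESeq2 1.22.2, on GRCm38, and KAPA stranded libraries were made per the labels' protocols. No source used here says how strand entered the counting, so antisense genes that overlap cannot be told apart. Log2 fold changes and adjusted p-values of the authors were read from this deposited table, and its 9 normalized columns were not used.

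Genes needed the CPM of 10 counts in the median library in at least 3 libraries and a total of at least 15 counts. Scaling was by TMM (30% of log ratios and 5% of levels trimmed, in R 4.3.3), and limma 3.58.1 (voom, offset 0.5, robust empirical Bayes) fitted all 9 libraries together. P-values were adjusted by Benjamini-Hochberg over 18234 genes, with a threshold of 0.05. The procedure was tested on simulated data of independent libraries, with no letter effect and no outlying library. That test does not cover these features of the real libraries. Deviations of same-letter untreated and oxamate libraries correlated across genes at 0.397, 0.399 and 0.293, each above the 0.1 asked of a pair. The letter was nevertheless left out of the main fit, whose p-values ignore it, and was entered as a block in an alternative. Every pair of libraries within a group differed beyond sampling noise. With at least 24849620 counts per library, counting error is small for abundant genes and larger for scarce ones such as Rfx3, Taf7l, Taf4b and Taf1.

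The members and gene lists were chosen with earlier results of these data known. Named are all members and paralogs, genes among the 3 with the smallest p per other list and comparison, and the gene most like each member. Alternatives were other scalings and filters, limma-trend, non-robust moderation, the replicate block, a fit on 6 libraries and leaving out each library. Promoters were found in RefSeq for 6 of the 9 members. Protein sequences were not used here.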

Additional observations from a re-analysis of the deposited data

How the results depend on the processing

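The number of members that changed with oxamate, 1 as reported, was 3 with the replicate block, 2 with only the 6 libraries compared, and 0 to 2 when a library was left out. For octyl-L2HG plus oxamate against oxamate it was 2 as reported, 4 with the replicate block (Mybl1 higher and Sox30 lower in addition) and 1 to 3 with a library left out. Against untreated, 5 as reported, it was 3 with upper quartile scaling, 3 with only the 6 libraries compared and 2 to 5 with a library left out. In the 2 comparisons with octyl-L2HG, same-letter libraries correlated at 0.308 and 0.171 for A and 0.387 and 0.340 for B. For C they correlated at 0.0437 and 0.063, under the 0.1 asked of every pair. The replicate block still took the letter over all 9 libraries, octyl-L2HG C included, so its calls rest partly on a pairing that fell short. Over all tested genes the replicate block called 4032 with oxamate, where 1747 were reported. No called member reversed in the 17 settings. Taf7l held its call in all 17 against oxamate, Mybl1 in all 17 against untreated, and Rfx3 in all 17 against untreated and 16 against oxamate. The fall of Tbpl1 with oxamate was lost in 7, without each untreated or oxamate library and without octyl-L2HG library A (adjusted p 0.0501). Against untreated, Tcfl5 was lost in 12, Tbpl1 in 8 and Taf7l in 3. The causes were not tested.

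List counts and list genes without octyl-L2HG library C, and list counts with each library left out, were chosen after seeing the data. With oxamate, 5 in place of 3 core promoter genes, 2 in place of 1 spermatid regulators, 2 in place of 0 CREM targets and 3 in place of 0 spermatid markers then passed. Depth limits Rfx3, Taf7l and Taf4b, and isoforms of Crem were not resolved.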
